A study of Drosophila melanogaster with 9 samples.

Results

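The comparison of young D+ INPs with middle-aged Grh+ INPs rested on 6 of the 9 libraries of the series, chosen by their labels, with 3 libraries of each state. INPs, the intermediate neural progenitors, are the transit-amplifying daughters of type II neuroblasts in the larval brain of Drosophila melanogaster. All flies carried UAS-cd8::tdTomato and erm-GAL4, a driver active in INPs, and were wild type apart from the reporters. D+ INPs additionally carried D::GFP, a fusion knocked into the endogenous Dichaete locus, and Grh+ INPs carried a grainyhead-GFP fusion on an inserted BAC, which adds copies of the locus. Eggs were laid at 25 °C over 2 nights, the animals were kept at 29 °C for 5 days, and brains of wandering late larvae were dissociated. Between 6000 and 7000 cells per library were collected by flow cytometry, with gates on large size and on strong fluorescence of both reporters. The Ey+ libraries, from the oldest INPs, carried an Ey-GFP fusion on an inserted BAC, with added copies of ey. They entered the estimate of the spread, the scaling and the filters on level, and are otherwise given as a description. The labels do not state whether replicates came from separate animals, so the p-values measure the spread between these libraries, which may be technical.

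INPs divide several times and change the neurons and glia that they make as they age. The age of an INP is read from transcription factors expressed in succession, first the SoxB protein Dichaete (D), then Grainyhead (Grh) and finally the Pax6 homolog Eyeless (Ey). Neighbouring factors in such a series typically activate the next factor or repress the previous one. The question addressed was which genes differ between the first and the second of these windows.

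Counts on genes ranged from 11266164 to 23184025 per library. The D+ libraries were sequenced on another flow cell than the Grh+ and Ey+ libraries, so that flow cell and the D+ state cannot be told apart in any result here. Among the D+ libraries, replicate 2 stood apart. Genes with an exon length over 5000 bp took 14.3% of its counts, against 23.8% and 19.1% in D+ replicates 1 and 3 and 19.3% to 22.7% in the Grh+ libraries. In Ey+ replicate 1 such genes took 42.9%, against 24.6% and 19.7% in Ey+ replicates 2 and 3. Among the Grh+ libraries, replicate 2 had counts on 15568 genes, against 11625 and 12337 in the others. It also held 597 counts of PPO1, a prophenoloxidase made by the crystal cells of the blood, where the other D+ and Grh+ libraries held 0 to 4. The part of these differences in the results was not tested, and results are therefore given with and without single libraries.

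The sorted cells carried progenitor transcripts in both states. The summed level of 9 INP markers was 4206 to 5054 RPM (counts per 1000000 counts on genes) in D+ INPs and 5137 to 5270 RPM in Grh+ INPs. In D+ replicates 1, 2 and 3, ase, a proneural factor of dividing progenitors, was at 843, 528 and 828 RPM, and in the Grh+ replicates it was at 901, 1049 and 889 RPM. The adaptor gene mira, which segregates cell fate determinants at division, was at 1157 to 1752 RPM in D+ and 1447 to 1923 RPM in Grh+ INPs. Of the markers, erm alone changed, and it was lower in Grh+ INPs. Transcripts of the neuronal gene elav were present in both states, at 185 to 977 RPM in D+ and 373 to 751 RPM in Grh+ INPs.

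Changed genes had to pass an adjusted p of 0.05 (edgeR quasi-likelihood test, Benjamini-Hochberg), to differ by more than 1 on the log2 scale and to reach a mean above 10 RPM in at least 1 of the 3 states. Of 10193 genes tested, 322 changed (3.16%), 176 of them higher in Grh+ INPs (1.73%) and 146 higher in D+ INPs (1.43%). These percentages are the background against which the counts of gene groups are read. Gene groups were matched by symbol, so the 10 changed genes without a symbol are in none of them. The rises were the larger changes. Their median log2 fold change was 1.96, with 86 genes over 2, whereas the genes higher in D+ INPs had a median of -1.23, with 14 genes beyond 2 in size. Genes that rose often started from little, as 111 of the 176 had a mean under 10 RPM in D+ INPs. Of the genes higher in D+ INPs, 33 of 146 had a mean under 10 RPM in Grh+ INPs. In bulk libraries, fewer cells that express a gene and less RNA per cell cannot be told apart. The RPM ranges of the D+ and Grh+ libraries did not overlap in 29.7% of all genes tested, nor in any of the changed genes. An exact two-sided permutation test of 3 against 3 libraries cannot go below p = 0.1, the value of every gene whose libraries do not overlap.

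**Figure D1:**
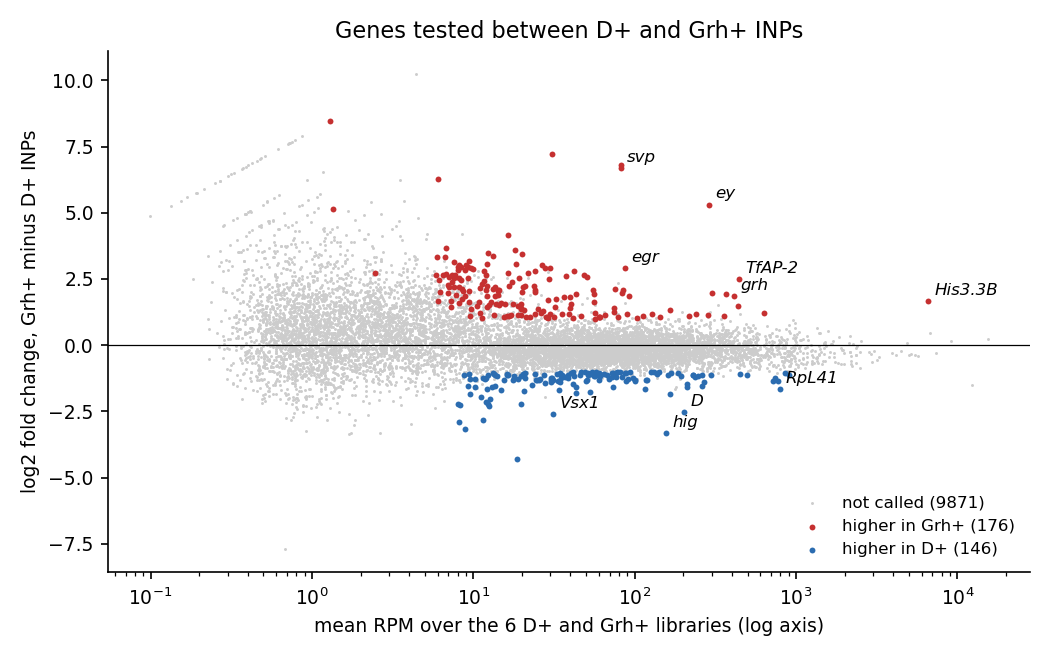
Each point is 1 of the 10193 genes tested, with the mean RPM over the 6 libraries on a log x axis and the log2 fold change (Grh+ minus D+ INPs) on the y axis. The 176 genes higher in Grh+ INPs (red) reach further from 0 than the 146 genes higher in D+ INPs (blue), and grey points were not called.

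The number of calls depended on the libraries. Without Grh+ replicate 1, 53 genes were called, without replicate 2, 110, and without replicate 3, 81, of which 53, 105 and 79 were among the 322. Leaving out D+ replicate 1, 2 or 3 gave 505, 296 or 237 calls, and leaving out Ey+ replicate 1, 2 or 3 gave 274, 180 or 227. Of the 322 genes, 34 that rose and 11 that fell were called in each of the 17 other fits (other scalings, filters, tests and samples). These 45 are described below as called throughout, and for most of the other named genes the text gives the fits without 1 library that ended the call.

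Of 13 INP temporal factors, 4 were higher in Grh+ INPs (ey, slp2, grh and hbn), 3 were higher in D+ INPs (D, run and opa), and 6 were not called. D (3L:14175610-14178620 in BDGP6.54) was at 393, 242 and 382 RPM in D+ replicates 1 to 3 and at 52, 65.1 and 80.5 RPM in the Grh+ replicates. The ranges were far apart, and the mean was 5.14-fold higher in D+ INPs (log2 fold change -2.52 ± 0.26 SE, adjusted p = 0.00192, called throughout). Since the cells were sorted on the D and Grh fusions, the levels of D and grh bear on the sort itself. For grh, on arm 2R, the D+ libraries held 238, 88.1 and 172 RPM and the Grh+ libraries 579, 838 and 574 RPM. The mean was 4-fold higher in Grh+ INPs (log2 fold change 1.85 ± 0.41, adjusted p = 0.0307). Fits that omitted D+ replicate 3, Ey+ replicate 2 or 1 of the Grh+ replicates ended this call, at adjusted p-values of 0.0541 to 0.0980. The BAC copies of grh are present in Grh+ INPs only, and their part in this difference was not tested.

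Transcripts of the factor of the next window were already at a high level. The study describes high ey mRNA in sorted Grh+ INPs, with only low Ey protein by immunofluorescence. In Grh+ INPs, ey (4:697689-721173) was at 633, 481 and 585 RPM, against 7.98, 10.6 and 19.9 RPM in D+ INPs, a 44.1-fold difference (log2 fold change 5.31 ± 0.37, adjusted p = 0.000331, called throughout). The Ey+ libraries held 562 to 685 RPM, a range that overlaps that of the Grh+ libraries. The part of the BAC copies of ey in the Ey+ level was not tested. Another gene that rose was slp2, one of the paired Sloppy-paired forkhead genes. It rose from 12, 6.65 and 10.1 RPM to 71.0, 60.4 and 64.1 RPM (log2 fold change 2.61 ± 0.23, adjusted p = 0.000667, called throughout). Its neighbour slp1 was at 2.50, 11.3 and 2.52 RPM in D+ and 11.2 to 13.5 RPM in Grh+ INPs and was not called (log2 fold change 1.06 ± 0.53, adjusted p = 0.261). The homeobox gene hbn rose from 69.4 to 76.9 RPM to a range of 168 to 196 RPM (log2 fold change 1.18 ± 0.15, adjusted p = 0.00551), a call lost without Grh+ replicate 1 (adjusted p = 0.0545).

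Besides D itself, run and opa were lower in Grh+ INPs. The Runt-domain gene run went from 320, 213 and 363 RPM to 110, 141 and 114 RPM (log2 fold change -1.45 ± 0.22, adjusted p = 0.00921), a call lost without Grh+ replicate 1 or 3 (adjusted p = 0.0521 to 0.0710). The zinc finger gene opa went from 663, 398 and 707 RPM to 302, 336 and 291 RPM (log2 fold change -1.08 ± 0.23, adjusted p = 0.0287). The D+ and Grh+ ranges did not overlap, yet the size of the opa change lay close to the threshold, and the call was lost in 11 of 17 other fits. With 1 library left out it was lost without D+ replicate 1 or 3, any Grh+ replicate or Ey+ replicate 2 or 3 (adjusted p = 0.0435 to 0.148, the lowest with a log2 fold change below 1 in size). Not called were ham, osa, slp1, toy, Sp1 and bsh. Of these, osa, which encodes a subunit of the Brahma chromatin remodelling complex, was at 347 to 932 RPM in D+ and 1216 to 1385 RPM in Grh+ INPs (log2 fold change 0.83 ± 0.33, adjusted p = 0.158), and bsh was at 5.82 to 17.8 RPM and 3.37 to 6.26 RPM (log2 fold change -1.33 ± 0.47, adjusted p = 0.124).

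**Figure D2:**
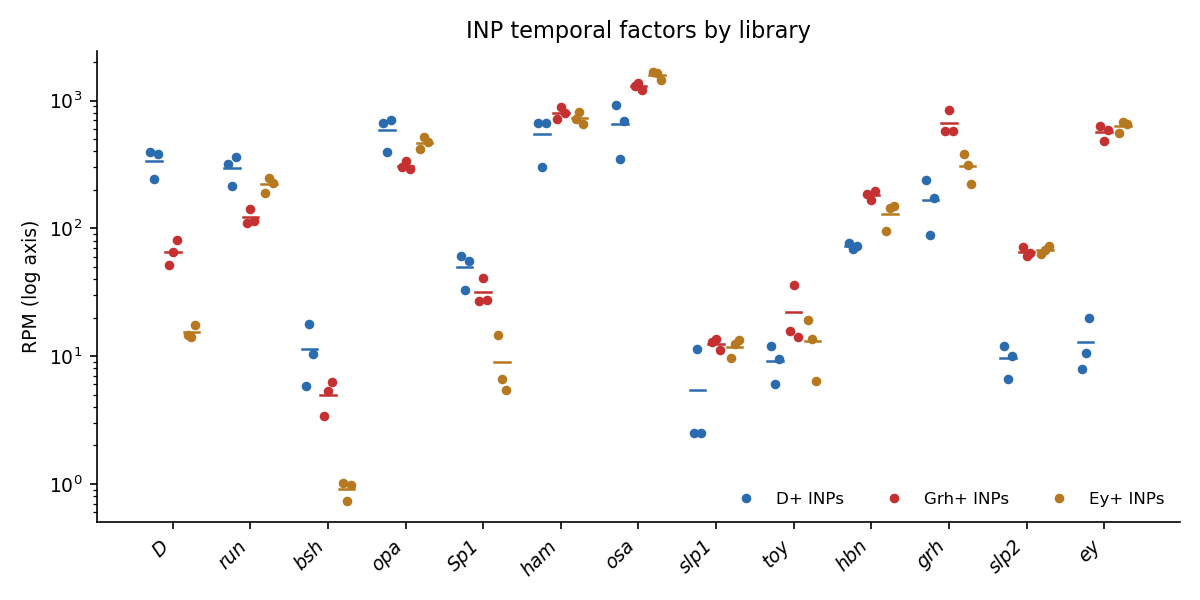
RPM on a log axis of the 13 INP temporal factors in each library (points) with the mean of each state (lines), ordered by their log2 fold change between D+ and Grh+ INPs. D falls from 242 to 393 RPM in D+ INPs to 52 to 80.5 RPM in Grh+ INPs, whereas ey is at 7.98 to 19.9 RPM in D+ and 481 to 633 RPM in Grh+ INPs.

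Temporal genes known from other neuroblast lineages also differed. Of 20 tested, 4 rose (svp, danr, dan and sqz, 20% against 1.73% of all genes), none fell and 16 were not called. The largest was svp (3R:12258737-12302785), an orphan nuclear receptor of the COUP-TF type that closes the early window in embryonic neuroblasts. It was at 1.85, 0.716 and 1.63 RPM in D+ INPs and 177, 179 and 133 RPM in Grh+ INPs, 116-fold higher (log2 fold change 6.69 ± 0.42, adjusted p = 0.000270, called throughout). Ey+ INPs held 56.7 to 85.8 RPM. The pipsqueak-domain genes danr and dan, which are neighbours on 3R, rose together. The level of danr went from 31.0, 26 and 32.8 RPM to 146, 144 and 129 RPM (log2 fold change 2.07 ± 0.17, adjusted p = 0.000552, called throughout), and that of dan from 31.7 to 47.2 RPM to a range of 93.9 to 126 RPM (log2 fold change 1.40 ± 0.20, adjusted p = 0.00786). The call of dan did not hold without Grh+ replicate 1 or 3 (adjusted p = 0.0508 to 0.0634), and that of sqz, a zinc finger gene (log2 fold change 1.26 ± 0.18, adjusted p = 0.00786), without Grh+ replicate 1 (adjusted p = 0.0504).

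Other transcription factors moved in both directions. TfAP-2 rose from 96.5, 130 and 139 RPM to 720, 813 and 775 RPM (log2 fold change 2.50 ± 0.20, adjusted p = 0.000483, called throughout) and was at 284 to 352 RPM in Ey+ INPs, so its highest libraries were those of Grh+ INPs. Of 68 homeobox genes, 3 rose (Lmx1a, ey and hbn, 4.41%), 2 fell (2.94%), among them Vsx1, and 63 were not called. Over all genes, 1.73% rose and 1.43% fell. The list median was 0.73, against 0.00 over all genes. Vsx1, a paired-type homeobox gene best known from the optic lobe, was at 66.0, 31.5 and 61.0 RPM in D+ and 7.90, 10.9 and 10.4 RPM in Grh+ INPs (log2 fold change -2.59 ± 0.30, adjusted p = 0.00328, called throughout). Lmx1a had no count in any D+ library and 1.42, 3.66 and 2.62 RPM in the Grh+ libraries, at least 17.9-fold above a floor of 3 counts per D+ library. It passed the threshold of level through Ey+ INPs, which held 12.9 to 16 RPM. None of 20 basic helix-loop-helix genes was called, by edgeR or by DESeq2, although 3 had an unadjusted p under 0.05.

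Among 26 progenitor identity genes, insb and erm were lower and sna was higher in Grh+ INPs, and the list median was 0.01. The nuclear gene insb, expressed in INPs and neural precursors, was at 41.5, 80.5 and 67.4 RPM in D+ and 23.4, 23.9 and 23.7 RPM in Grh+ INPs (log2 fold change -1.57 ± 0.23, adjusted p = 0.00786, lost without Grh+ replicate 1 at adjusted p = 0.0545). For erm, the zinc finger gene whose enhancer drives the sorting reporter, D+ INPs held 192, 245 and 197 RPM and Grh+ INPs 114, 96.7 and 116 RPM (log2 fold change -1.11 ± 0.20, adjusted p = 0.0159). In Ey+ INPs erm was at 38.7 to 43.1 RPM. The snail-family gene sna rose from 28.6, 36.4 and 40.7 RPM to 69.4, 88.1 and 78.1 RPM (log2 fold change 1.00 ± 0.17, adjusted p = 0.0127), at the threshold of size. The calls of erm and sna were each lost without any single Grh+ replicate, and also without D+ replicate 2 or Ey+ replicate 2 for erm and D+ replicate 1 for sna (adjusted p = 0.0335 to 0.0993 and 0.0169 to 0.0751).

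Genes of cell communication were called upwards. In the signalling list, 4 of 49 ligands and receptors rose (Wnt4, aos, wit and Egfr) and none fell. Those 4 were 8.16% of the list, against 1.73% of all genes, and the list median was 0.50. The Egf receptor gene Egfr went from 26.6, 16.1 and 18.7 RPM to 64.7, 58.6 and 55.2 RPM (log2 fold change 1.39 ± 0.23, adjusted p = 0.0110, lost without Grh+ replicate 1 or 3 at adjusted p = 0.0521 to 0.0712). Its secreted inhibitor aos went from 20.2, 10 and 19.1 RPM to 68.3, 74.2 and 68.0 RPM (log2 fold change 1.94 ± 0.26, adjusted p = 0.00566, called throughout). Of 28 Notch pathway genes, the ligand Ser and E(spl)m2-BFM rose (7.14%, against 1.73% of all genes) and none fell. Ser was at 1.09 to 2.35 RPM in D+ and 11.0 to 15.8 RPM in Grh+ INPs (log2 fold change 2.66 ± 0.44, adjusted p = 0.0112). The calls of Wnt4 and wit were lost without any single Grh+ replicate and in further fits without 1 library (adjusted p = 0.0525 to 0.118 and 0.0526 to 0.116). Without any single Grh+ replicate, no Notch gene was called, and Ser had adjusted p-values of 0.0521 to 0.0720. E(spl)m2-BFM was lost in 6 of the 9 fits (adjusted p = 0.0626 to 0.146).

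Of 19 cell death genes, 3 rose (15.8%, against 1.73% of all genes) and none fell, with a median of 0.53. The gene egr, which encodes Eiger, the fly TNF ligand, went from 16.7, 11.3 and 27.7 RPM to 163, 138 and 169 RPM, 8.43-fold higher (log2 fold change 2.92 ± 0.30, adjusted p = 0.00193, called throughout). The gene skl, an antagonist of the inhibitor of apoptosis proteins, went from 6.86, 3.48 and 18.5 RPM to 68.3, 100 and 53.6 RPM (log2 fold change 2.78 ± 0.52, adjusted p = 0.0171), a call lost without Grh+ replicate 1 or 2 (adjusted p = 0.0637 to 0.0639). The effector caspase gene Dcp-1 rose by a log2 fold change of 1.08 ± 0.26 (adjusted p = 0.0415), and its call was lost in 8 of the 9 fits without 1 library, all but that without D+ replicate 2 (adjusted p = 0.0248 to 0.173, the lowest with a log2 fold change below 1). The list's summed level was 656 to 842 RPM in D+ INPs and 1111 to 1114 RPM in Grh+ INPs.

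Few cell cycle genes were called. None of 25 cell cycle regulators was called by edgeR or DESeq2, with 7 at an unadjusted p under 0.05. Of these 7, 6 were lower in Grh+ INPs (list median -0.14). CycA was at 1910 to 2221 RPM in D+ and 2185 to 2551 RPM in Grh+ INPs (log2 fold change 0.05 ± 0.16, adjusted p = 0.889). Of 43 replication genes, 1 fell and 1 rose, with a list median of -0.31. Among the 12 with an unadjusted p under 0.05, 11 were lower in Grh+ INPs. PolD3, a subunit of DNA polymerase delta, fell from 162, 177 and 176 RPM to 62.0, 58.3 and 62.2 RPM (log2 fold change -1.64 ± 0.19, adjusted p = 0.00337, called throughout). Psf3, a subunit of the GINS complex of the replicative helicase, rose from 43.6, 48.0 and 49.0 RPM to 105, 122 and 104 RPM (log2 fold change 1.08 ± 0.15, adjusted p = 0.00587). Exons of Psf3 overlap those of CG17841 over 34.9% of their length, and reads of overlapping genes cannot be told apart without strand. Of 58 mitosis genes, Det and the centromeric histone gene cid fell (3.45%, against 1.43% of all genes) and none rose (median -0.43). Of the 23 mitosis genes with an unadjusted p under 0.05, 22 were lower in Grh+ INPs. Once the exon length trend was removed, 7 members were called lower. In that fit the genes called higher in D+ INPs also went from 146 to 269 over all genes. The mitosis median relative to all genes was -0.42 in it and -0.44 in the main fit. Without any single Grh+ replicate, neither Det nor cid was called (adjusted p = 0.0520 to 0.0853 for Det, and up to 0.190 for cid).

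The lower genes included many small components of protein synthesis and respiration. Of 73 oxidative phosphorylation genes, 8 were higher in D+ INPs (11.0%, against 1.43% of all genes) and none in Grh+ INPs. The same held for 6 of 82 cytosolic ribosomal protein genes (7.32%), 6 of 70 mitochondrial ribosomal protein genes (8.57%) and 3 of 33 splicing genes (9.09%). The list medians were -0.50, -0.55, -0.56 and -0.49. The gene sun, which encodes the epsilon subunit of ATP synthase, was at 54.4, 95.3 and 89.5 RPM in D+ and 26.2, 26.8 and 25.7 RPM in Grh+ INPs (log2 fold change -1.75 ± 0.22, adjusted p = 0.00403, called throughout). RpL41 was at 758, 1489 and 1259 RPM in D+ and 389, 425 and 420 RPM in Grh+ INPs (log2 fold change -1.66 ± 0.25, adjusted p = 0.00786, lost without Grh+ replicate 1 at 0.0660). Most members of these lists were not called.

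These counts moved with single libraries, as did those of all genes higher in D+ INPs, which numbered 12, 33 and 21 without Grh+ replicate 1, 2 or 3 and 258 without D+ replicate 1. Without Grh+ replicate 1, 2 or 3, the oxidative phosphorylation calls were 1, 2 and 1, those of the cytosolic ribosomal proteins 0, 1 and 1, and those of the mitochondrial ribosomal proteins and of splicing 0 in each fit. Without D+ replicate 1, the oxidative phosphorylation, cytosolic ribosomal and mitochondrial ribosomal calls were 11, 17 and 12. Without D+ replicate 2, whose ribosomal protein genes summed to 139246 RPM against 78319 and 104035 RPM in D+ replicates 1 and 3, the calls of these lists and of splicing were 4, 6, 3 and 1, and the list medians relative to all genes were -0.26, -0.31, -0.34 and -0.33. The Grh+ libraries summed to 81879 to 87337 RPM, inside the D+ range.

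Ribosome assembly and translation factors held few calls. None of 57 ribosome biogenesis genes was called by edgeR and 2 fell by DESeq2, with 15 at an unadjusted p under 0.05. Of these 15, 13 were lower in Grh+ INPs, and the list median was -0.19. Of 45 translation factors, the elongation factor gene eEF1alpha2 rose from 38.2, 37.7 and 36.8 RPM to 88.4, 104 and 85.1 RPM (log2 fold change 1.15 ± 0.21, adjusted p = 0.0163) and none fell. That call was lost without any single Grh+ replicate (adjusted p = 0.0747 to 0.0869). The median of the translation factors was -0.37, and of 8 with an unadjusted p under 0.05, 7 were lower in Grh+ INPs.

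Exon length moved with these changes. The median exon length was 1052.5 bp for the genes higher in D+ INPs, 3319.5 bp for the genes higher in Grh+ INPs and 2078 bp for the genes not called. Among 255 genes with up to 500 bp of exons, 16 were higher in D+ INPs and 0 in Grh+ INPs, with a median log2 fold change of -0.37. Of 476 genes with over 8000 bp, 0 were higher in D+ and 15 in Grh+ INPs, with a median of 0.35. The ribosomal and respiratory lists consist of short genes, with median exon lengths of 935.5 bp (cytosolic ribosomal proteins), 783 bp (mitochondrial ribosomal proteins) and 871 bp (oxidative phosphorylation). After each library's trend on exon length was removed, their medians relative to all genes were -0.38, -0.41 and -0.35, and 8, 7 and 9 members were called lower in Grh+ INPs. In that fit the median over all genes was -0.27, and 114 genes were higher in Grh+ and 269 in D+ INPs. The calls of hbn, dan, sqz, sna, Psf3, Cirl and dpy were among those lost in it.

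**Figure D3:**
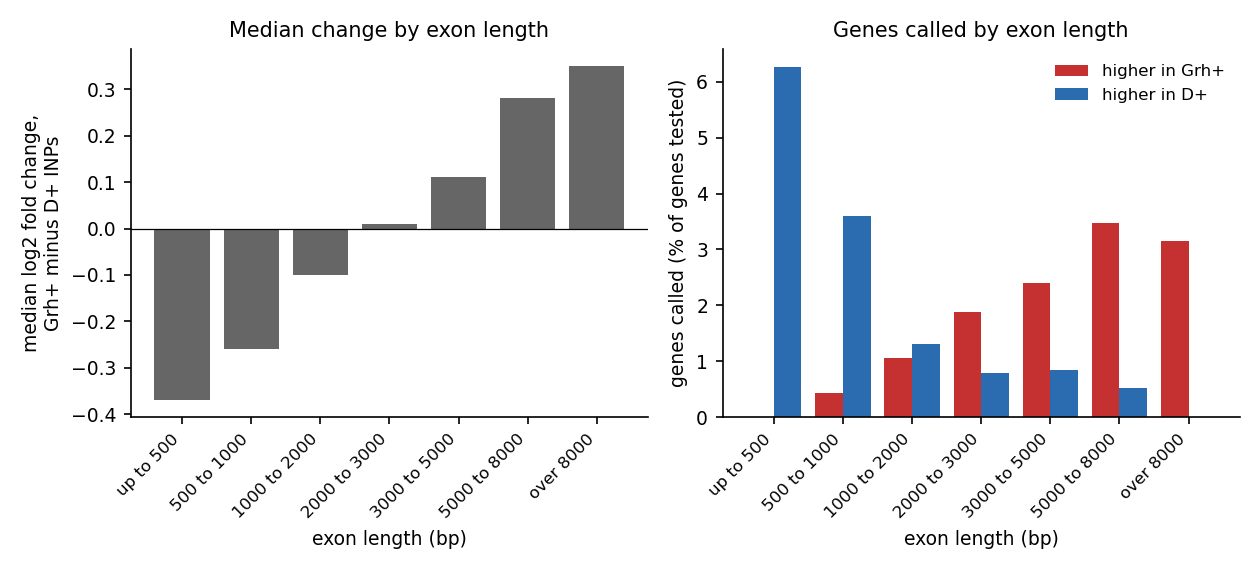
Left, the median log2 fold change (Grh+ minus D+ INPs) of the genes tested in each range of exon length. Right, the share of genes called in each direction. The median goes from -0.37 at up to 500 bp to 0.35 over 8000 bp, and the calls go from 16 higher in D+ and 0 higher in Grh+ INPs to 0 and 15.

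Lists of mature neuronal function had medians above 0, with calls in both directions. None of 30 neuron markers was called by edgeR or DESeq2 (median 0.34, 3 at an unadjusted p under 0.05), nor any of 35 ion channels (median 0.34, 5 at an unadjusted p under 0.05). The medians of both lists turned negative without Grh+ replicate 2, at -0.18 and -0.25 relative to all genes. Of 18 transmitter identity genes, Ace, VGlut and Gat rose (16.7%) and hig fell (5.56%). The list median was 1.51, and 0.81 relative to all genes without Grh+ replicate 2. The call of VGlut was lost in 8 of the 9 fits without 1 library, all but that without D+ replicate 2 (adjusted p = 0.0517 to 0.148). Hig, a secreted protein of the synaptic cleft at cholinergic synapses, was encoded by one of the genes with the largest falls, from 314, 309 and 222 RPM to 37.1, 23.0 and 33.2 RPM (log2 fold change -3.33 ± 0.28, adjusted p = 0.000552, called throughout). Ace, which encodes acetylcholinesterase, rose from 8.20, 2.66 and 4.70 RPM to 31.1, 50.3 and 33.5 RPM (log2 fold change 2.72 ± 0.40, adjusted p = 0.00786, called throughout). Of 45 transmitter receptors, 1 rose and 1 fell. Their list median was 0.69, and -0.36 relative to all genes without Grh+ replicate 2. The glutamate receptor gene KaiR1D rose from 6.30, 5.53 and 6.58 RPM to 13.5, 18.8 and 14.9 RPM (log2 fold change 1.2 ± 0.27, adjusted p = 0.0336), a call lost in 7 of the 9 fits without 1 library (adjusted p = 0.0527 to 0.150). The octopamine receptor gene Octbeta3R fell from 36.0, 23.6 and 46.5 RPM to 1.51, 3.23 and 1.21 RPM (log2 fold change -4.29 ± 1.02, adjusted p = 0.0386). The call of Octbeta3R was lost without D+ replicate 3 or any single Grh+ replicate (adjusted p = 0.0883 to 0.156).

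Guidance and adhesion genes differed in part. Of 61 axon guidance genes, comm, stan and robo1 rose (4.92%, against 1.73% of all genes) and unc-5 fell (1.64%, against 1.43%). The list median was 0.44. The Netrin receptor gene unc-5 was at 755, 470 and 748 RPM in D+ and 298, 358 and 346 RPM in Grh+ INPs (log2 fold change -1.13 ± 0.25, adjusted p = 0.0302), and Ey+ INPs held 103 to 116 RPM. The gene comm, which controls delivery of the Robo receptors to the axon surface, went from 7.42, 2.81 and 3.46 RPM to 24.1, 23.1 and 18.7 RPM (log2 fold change 2.11 ± 0.37, adjusted p = 0.0137), and the Slit receptor gene robo1 from 42.7 to 76.7 RPM to a range of 137 to 148 RPM (log2 fold change 1.04 ± 0.26, adjusted p = 0.0473). Of 15 cadherins in the list, ft and stan rose (13.3%, against 1.73% of all genes) and none fell. The giant cadherin gene ft went from 11.7, 3.74 and 2.23 RPM to 61.3, 46.7 and 40.7 RPM (log2 fold change 2.92 ± 0.55, adjusted p = 0.0169). Each of these calls was lost without any single Grh+ replicate (adjusted p up to 0.192), and those of unc-5, stan and robo1 also without D+ replicate 3 and others. None of 52 genes of the Ig adhesion code was called by edgeR and 1 rose by DESeq2, with 6 at an unadjusted p under 0.05. The median of the Ig adhesion code was 0.67, and -0.30 relative to all genes without Grh+ replicate 2.

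Genes of epithelia and their apical matrix were among the rises. Grh is known as an activator of epithelial and cuticle genes in the fly epidermis. Of 23 cuticle and apical matrix genes, 5 rose (Cda4, obst-A, dpy, verm and mey, 21.7% against 1.73% of all genes) and none fell, with a median of 1.77. In 17 of the 23 all Grh+ libraries lay above all D+ libraries, as in 21.3% of all genes tested. The chitin deacetylase gene verm was at 15.1, 12.3 and 13.7 RPM in D+ INPs, 47.2, 57.0 and 49.7 RPM in Grh+ INPs and 6.10 to 8.83 RPM in Ey+ INPs (log2 fold change 1.75 ± 0.21, adjusted p = 0.00403, called throughout). The gene dpy, which encodes a giant apical matrix protein, went from 22.6, 10.2 and 15.5 RPM to 71.4, 68.1 and 49.7 RPM (log2 fold change 1.81 ± 0.31, adjusted p = 0.0123, lost without Grh+ replicate 1 or 2 at adjusted p = 0.0503 to 0.0710). Without Grh+ replicate 1, 2 or 3, 1, 2 and 3 members of the list were called.

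Septate junctions seal epithelia below the adherens belt. Of 29 of their genes tested, nrv1, vari and Gli rose (10.3%, against 1.73% of all genes) and none fell (median 0.27). Without Grh+ replicates 1, 2 and 3, 0, 0 and 2 members were called (vari was lost in all 3 fits, at adjusted p = 0.0737 to 0.0887). The Na,K-ATPase subunit gene nrv1 went from 5.69, 1.64 and 4.55 RPM to 29.6, 37.0 and 20.2 RPM (log2 fold change 2.71 ± 0.46, adjusted p = 0.0124). Chosen after their values were seen, uif (a transmembrane protein of the apical surface) and pot (a zona pellucida domain protein) had means of 3.50 and 5.26 RPM in D+, 33.2 and 48.1 RPM in Grh+ and 4.61 and 6.76 RPM in Ey+ INPs.

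Among markers of other cell types, rises called by edgeR were limited to the trachea and glia lists. Of 12 optic lobe markers, none rose and 1 fell. The summed level of 9 trachea markers was 25.1 to 59.4 RPM in D+, 127 to 195 RPM in Grh+ and 23.9 to 34.8 RPM in Ey+ INPs, and 2 of them (obst-A and verm, which are also in the matrix list) rose. Their defining gene trh, which specifies the tracheal fate, was at 2.97 to 5 RPM in D+ and 5.25 to 12.5 RPM in Grh+ INPs and was not called (log2 fold change 0.87 ± 0.42, adjusted p = 0.249). The call of obst-A was lost in 7 of the 9 fits without 1 library (adjusted p = 0.0517 to 0.156). Of 22 glia markers, wrapper, zyd, Gat and Gli rose (18.2%, against 1.73% of all genes) and none fell (median 1.44). The call of wrapper was lost in 6 of those fits (adjusted p = 0.0676 to 0.161). The pan-glial determinant repo was at 1.33 to 6 RPM in D+ and 5.05 to 6.80 RPM in Grh+ INPs (log2 fold change 0.68 ± 0.52, adjusted p = 0.487). Gat is also in the transmitter identity list and Gli in the septate junction list, so the calls of Gat and Gli are the same calls as above. The summed level of the glia markers was 1876 to 3841 RPM in D+ and 3540 to 4280 RPM in Grh+ INPs. Of 6 haemocyte markers tested none was called, nor any of 7 fat body or 11 imaginal disc markers by edgeR, with 2 of each list at an unadjusted p under 0.05 and 0, 1 and 1 called by DESeq2. The part of cells of these types in the changes was not tested.

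Among the remaining genes with the largest fold changes, out, a transporter gene, rose from 1.04, 0 and 0 RPM to 67.5, 53.5 and 62.5 RPM (log2 fold change 7.21 ± 0.88, adjusted p = 0.00403, a fold that rests on the counts of D+ replicate 1, the one D+ library above 0), and CG43163 rose from 2.59, 0.563 and 0.693 RPM to 199, 95.7 and 194 RPM (log2 fold change 6.81 ± 0.59, adjusted p = 0.000615). The odorant-binding protein gene Obp99a rose from 3.74 to 7.72 RPM to a range of 52.4 to 54.1 RPM (log2 fold change 2.92 ± 0.33, adjusted p = 0.00315). CG2841 and the lectin gene nw rose as well, by log2 fold changes of 2.64 ± 0.41 and 2.57 ± 0.38 (adjusted p = 0.00882 and 0.00786), and all 5 were called throughout. Among the falls, Pura went from 287, 197 and 275 RPM to 79.0, 78.3 and 78.8 RPM (log2 fold change -1.84 ± 0.22, adjusted p = 0.00359). The selenoprotein gene BthD went from 294, 292 and 335 RPM to 112, 119 and 112 RPM (log2 fold change -1.58 ± 0.17, adjusted p = 0.00193), and CG10479 and gkt, a tyrosyl-DNA phosphodiesterase gene, fell by log2 fold changes of -1.79 ± 0.20 and -1.71 ± 0.24 (adjusted p = 0.00286 and 0.00662). Of these 4, gkt alone was not called throughout, with an adjusted p of 0.0545 without Grh+ replicate 1.

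**Figure D4:**
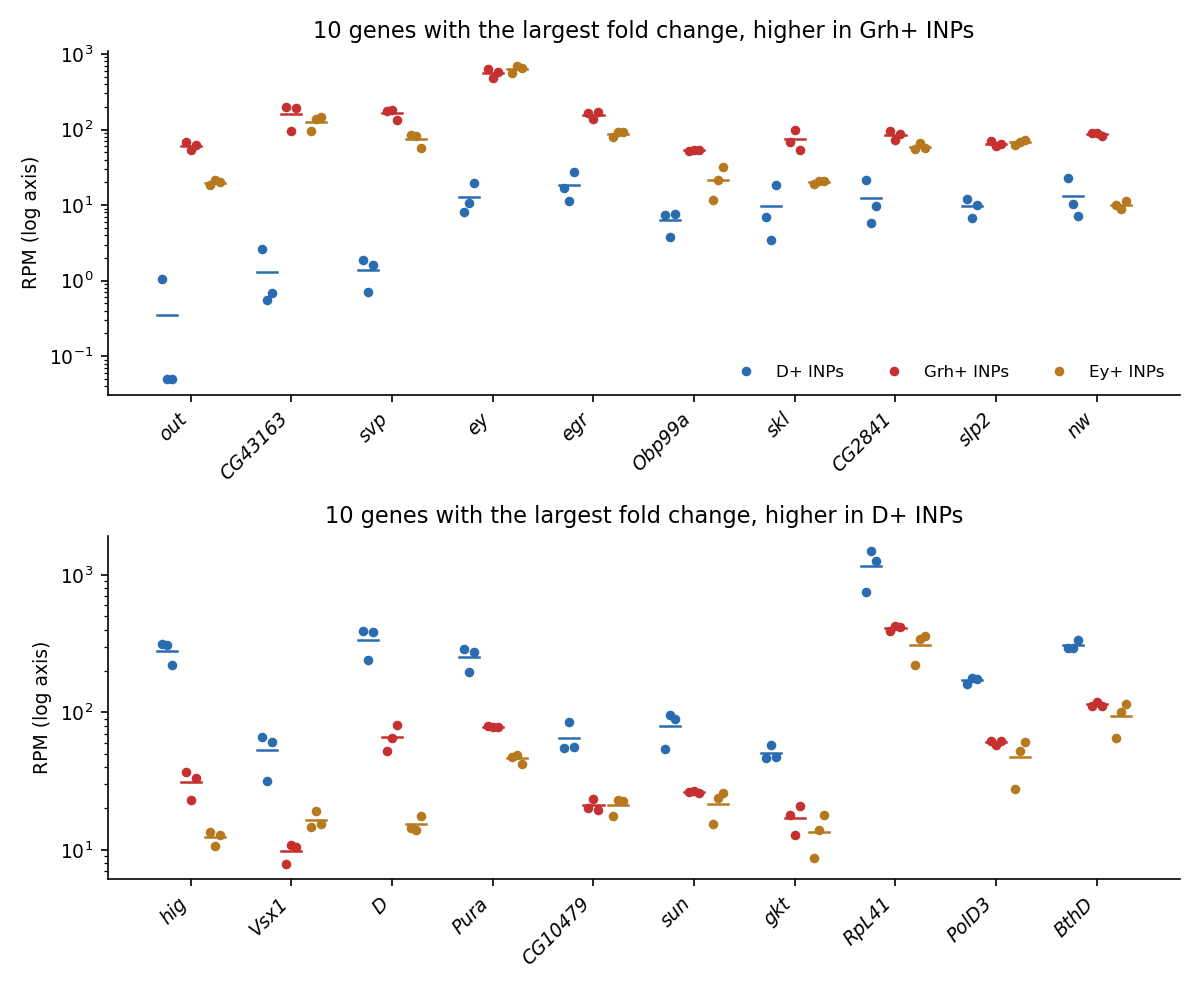
RPM on a log axis in each library (points, with 0 drawn at 0.05) and state means (lines) for the 10 top rises and 10 top falls by fold change, among genes that changed without overlap of libraries and had a mean over 50 RPM in the higher state. For svp the D+ libraries lie between 0.716 and 1.85 RPM and the Grh+ libraries between 133 and 179 RPM, and for hig between 222 and 314 RPM and between 23.0 and 37.1 RPM.

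In absolute level, the largest rise among called genes was that of His3.3B, which encodes the replication-independent histone variant H3.3. It was at 3319, 1760 and 3591 RPM in D+, 10064, 11232 and 9420 RPM in Grh+ and 15535 to 19283 RPM in Ey+ INPs (log2 fold change 1.67 ± 0.26, adjusted p = 0.00882, lost without Grh+ replicate 1 at adjusted p = 0.0545). None of 57 chromatin regulators was called by edgeR or DESeq2, with 5 at an unadjusted p under 0.05. Among the called genes, the next largest rises in RPM were those of TfAP-2, ey, the latrophilin receptor gene Cirl (354 ± 48.2 to 904 ± 6.83 RPM, mean ± SD, n = 3 each) and grh. The call of Cirl did not hold without Grh+ replicate 1 or 3 (adjusted p = 0.0567 to 0.0710). The largest falls among called genes in RPM were those of RpL41, FBgn0261606 (an identifier with no symbol in the table used), RpS27, RpL24 and RpS28b, which lay between 715 and 1489 RPM in D+ and between 389 and 675 RPM in Grh+ INPs. The calls of the last 4 were lost without any single Grh+ replicate. Exons of RpL24 overlap those of CG7099 over 21.6% of their length.

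The remaining lists held few calls. Of 34 proteasome genes, Prosalpha2 fell, of 34 tRNA synthetases, CysRS, and of 15 mitochondrial import genes, Tim8, while none rose in these lists. The shares were 2.94%, 2.94% and 6.67%, against 1.43% of all genes. The calls of all 3 genes were lost without any single Grh+ replicate. Prosalpha2 was lost in 7 and CysRS in 5 of the 9 fits without 1 library (adjusted p up to 0.171 and 0.108, and up to 0.1 for Tim8). Of 12 glycolysis genes, the aldolase gene Ald1 rose from 14.8, 9.82 and 13 RPM to 57.1, 45.7 and 34.8 RPM (log2 fold change 1.72 ± 0.25, adjusted p = 0.00786, lost without Grh+ replicate 1 at adjusted p = 0.0504). None of 20 tricarboxylic acid cycle genes was called by edgeR and 1 rose by DESeq2, with 6 at an unadjusted p under 0.05. Of 22 innate immunity genes, GNBP3, GNBP1 and Tl rose (13.6%, against 1.73% of all genes) and none fell. None of the 3 calls held without Grh+ replicate 1 or 3 (adjusted p = 0.0521 to 0.108 over the fits that lost them). Among 627 long noncoding RNAs, 1 rose and 3 fell, a share of 0.159% and 0.478%. Without the RPM threshold, 14 were higher in Grh+ INPs. The dosage compensation RNA roX1, which is made in males, was at 3251 RPM in D+ replicate 2 and at 8290 to 12080 RPM in the other D+ and Grh+ libraries.

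**Figure D5:**
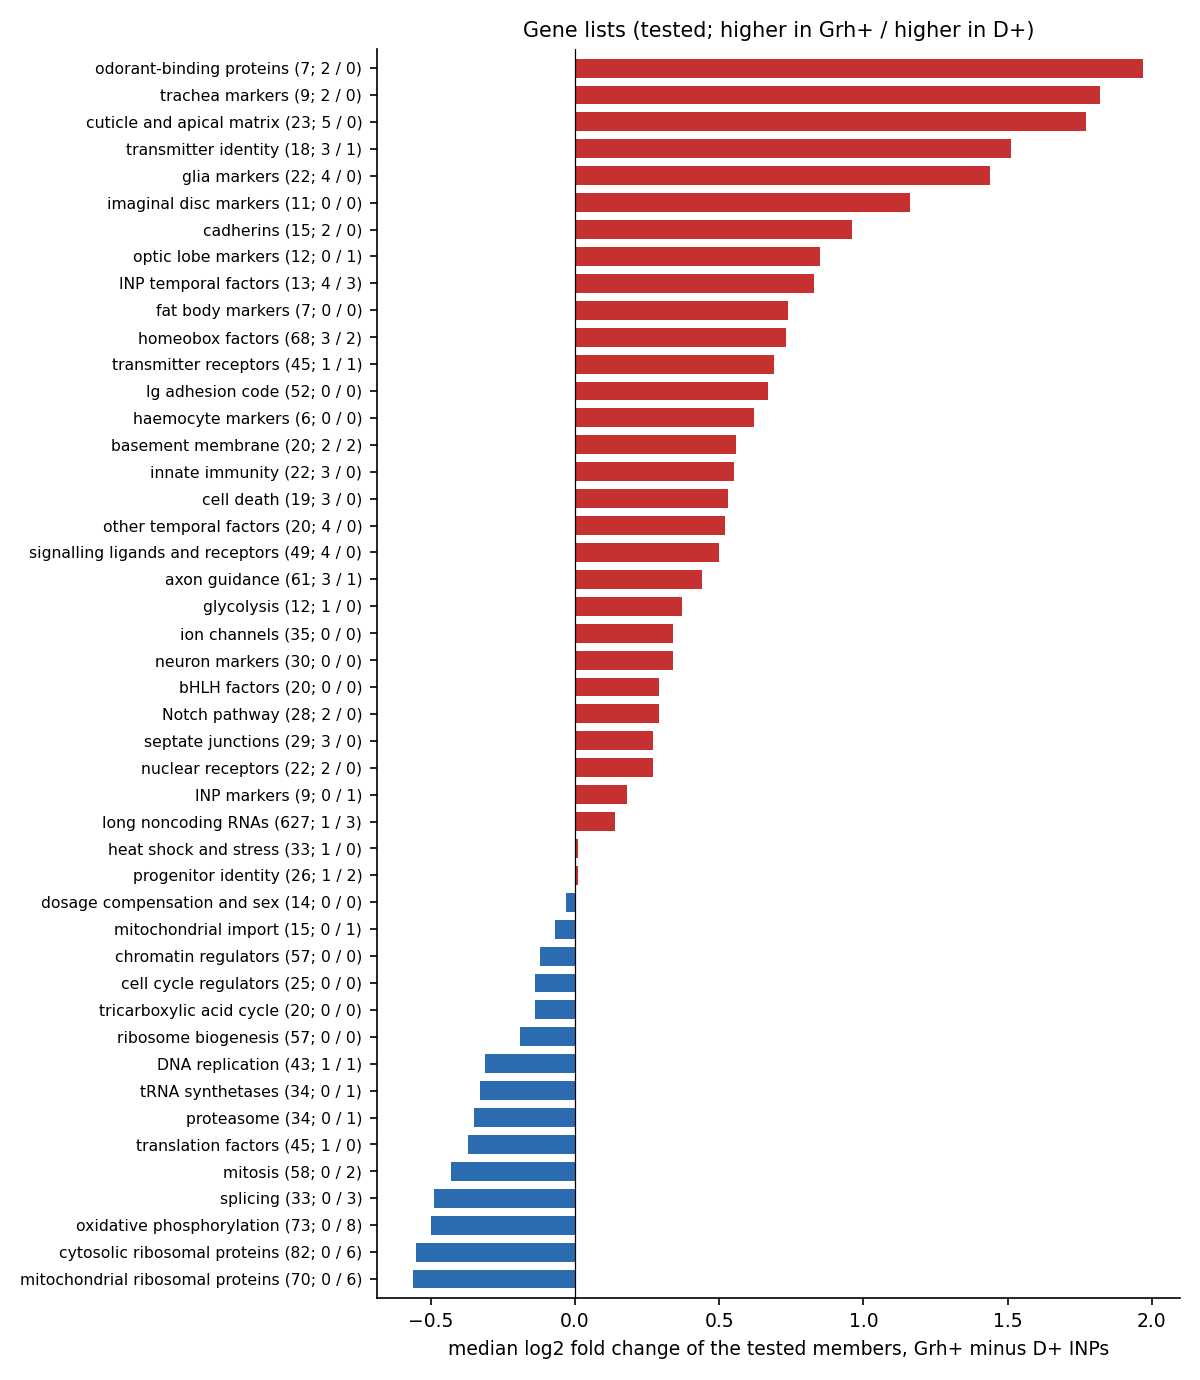
Bars give the median log2 fold change (Grh+ minus D+ INPs) of the tested members of each list, red above 0 and blue below. Labels give the number tested, then the numbers higher in Grh+ and in D+ INPs. Mitochondrial ribosomal proteins lie lowest (-0.56) and odorant-binding proteins highest (1.97, 7 genes tested), a median that fits without 1 library put as low as 0.18, without Ey+ replicate 3.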

How the data were processed

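Total RNA of sorted INPs was amplified from the poly(A) tail, made into tagged Nextera libraries and sequenced as 50 bp single-end reads without strand. The authors deposited HTSeq counts of reads per gene for each library. The submitters' processing notes name BWA 0.7.12, TopHat2 2.1.1, bedtools 2.26.0, HTSeq 0.6.1 and DESeq2 1.12.4. The 5 HTSeq summary lines, 34.7% to 53.2% of the lines' total per library, were left out of the library sizes. The study's methods describe marking reads that share a position and a molecular tag as duplicates, and do not say whether marked reads were left out of the counts.

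Counts of 16364 genes were fitted over all 9 libraries with edgeR 4.0.16 (R 4.3.3, limma 3.58.1), using TMM factors, the filter on low counts that edgeR provides and quasi-likelihood tests of Grh+ against D+ INPs with Benjamini-Hochberg adjustment over the 10193 genes tested. Standard errors are on the log2 scale. RPM is counts per 1000000 counts on genes. DESeq2 1.42.0 was an alternative, and so were other scalings, filters and thresholds, a replicate block, the removal of a loess trend on exon length (span 0.5) and the omission of each library in turn. The count test was tried on simulated counts that held no flow cell difference, exon length trend or outlying library.

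Genes were named by these rules. They were the INP temporal factors, the 10 largest fold changes in each direction over 50 RPM, the 5 largest RPM differences in each direction, up to 4 changed members per list (up to 2 by level where none changed), and marker genes that a result touches. The members and the 47 gene lists were chosen with earlier results of these data known. Symbols and BDGP6.54 positions came from an annotation table, which gave a symbol for 16208 identifiers. Identifiers without a symbol could not enter a list, so list counts may miss members. Sequences, motifs and GC content were not analysed here. The values of 1 gene are not reported here.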

Additional observations from a re-analysis of the deposited data

How the results depend on the processing

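Among the genes named by the rules and called in the main fit, none changed direction under any alternative. Such a change was hardly possible, as the D+ and Grh+ libraries of all 322 called genes lay apart in RPM. Of 129 genes named and tested, 72 lost their call without Grh+ replicate 1. For genes not called, changes of direction were not counted. Leaving out 1 library at a time gave 53 to 505 changed genes, 41 to 247 of them higher in Grh+ and 12 to 258 higher in D+ INPs. The lowest values came without Grh+ replicate 1 and the highest without D+ replicate 1, and without Ey+ replicate 2 there were 180, 108 and 72. A fit of the 6 D+ and Grh+ libraries alone gave 183 calls, 103 higher in Grh+ and 80 higher in D+ INPs. Library size without TMM gave 226 and 51, with a median over all genes of 0.16, and upper-quartile scaling gave 215 and 101. Removing the exon length trend gave 114 and 269, and the DESeq2 test gave 279 and 178. Without the RPM threshold 285 genes were higher in Grh+ INPs, and without the fold change threshold 521 genes changed, 286 of them higher in D+ INPs. Without a filter the median over all genes was 0.21, with 155 and 120 calls. The cause of these shifts was not tested.

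With the replicate number as a block, 214 genes changed, 127 higher in Grh+ and 87 higher in D+ INPs, with 210 shared with the 322. The correlations of deviations between same-numbered libraries were -0.022, -0.257 and -0.141, and those between other numbers lay between -0.162 and 0.251. The labels state no pairing. With 3 libraries per state, these correlations cannot decide whether same-numbered libraries were prepared together. Genes near the thresholds of size and adjusted p are the least settled, given 3 libraries per state.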

Other observations

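Some values belonged to no comparison above. Of the 17 genes tested that lie within 50000 bp of grh, 15 had a positive log2 fold change (88.2%, median 0.86), against 50.1% of all genes tested. None of the 17 changed by edgeR or by DESeq2, and 4 had an unadjusted p under 0.05. On chromosome 4, 4 of 96 genes tested rose (4.17%, against 1.73% of all genes) and 0 fell (against 1.43%). The gene ey, described above, is 1 of these 4, and the median log2 fold change of the chromosome was -0.07. Of 20 basement membrane and matrix receptor genes, dally and LanB1 rose, and dlp and if fell. None of these 4 was called without any single Grh+ replicate, and LanB1 and dlp were lost in 7 of the 9 fits without 1 library (adjusted p = 0.0518 to 0.183 and 0.0453 to 0.131).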
